A study of Mus musculus with 6 samples.

Results

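Of the genes that build fatty acids from acetyl units, 10 were followed among the 17128 genes of the count table: the transcriptional regulators Mlxipl, Nr1h3 and Srebf1, the lipogenic cofactor gene Thrsp, the enzyme genes Acly, Acaca, Fasn, Elovl6 and Scd1, and the malic enzyme gene Me1. They were chosen by gene symbol as the core of de novo lipogenesis, with earlier results of these data known, and the table held all 10. RNA was sequenced from flow-sorted femoral bone and marrow cells taken at postnatal day 21, after the distal growth plate had been cut away. For the 3 CXCL12-deficient libraries the sort gathered GFP+ tdTomato+ cells from Col2a1-cre animals that were Cxcl12(GFP/fl) and R26R(tdTomato/+). For the 3 Control libraries it gathered GFP+ cells from animals with the same Cxcl12(GFP/fl) and R26R(tdTomato/+) alleles and no cre. All cells of both groups therefore carried GFP in place of one Cxcl12 allele, and the cre, the loss of the floxed allele and the tdTomato gate came together in every CXCL12-deficient library. Col2a1-cre acts in the descendants of cells that once expressed the cartilage collagen gene Col2a1, while the Control gate took GFP+ cells of any descent. The labels give neither sex nor litter. Nothing in them ties a library to its own animal, so the p-values reflect the scatter of these 6 libraries, which may be technical.

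De novo lipogenesis turns citrate into fat. ATP citrate lyase (Acly) cuts citrate to acetyl-CoA, acetyl-CoA carboxylase (Acaca) makes malonyl-CoA, fatty acid synthase (Fasn) builds palmitate, Elovl6 lengthens it and stearoyl-CoA desaturase (Scd1) adds a double bond, with NADPH supplied in part by the cytosolic malic enzyme (Me1). The programme is switched on by the glucose-sensing factor ChREBP (gene Mlxipl), the insulin-responsive factor SREBP1 (Srebf1) and the oxysterol receptor LXR alpha (Nr1h3), all best known from liver and fat. CXCL12-abundant reticular (CAR) cells, the stromal cells that make most of the CXCL12 of the marrow, are known to share part of their gene expression with fat cells.

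The libraries carried stromal RNA in both groups. The 10 CAR cell markers, all detected, summed to 7780 to 9206 CPM (reads scaled to a common library total) in CXCL12-deficient libraries and to 7476 to 8238 CPM in Controls. That sum holds the deleted gene itself, Cxcl12, which had 1423, 1280 and 1163 CPM in CXCL12-deficient libraries, against 3876, 3673 and 3694 CPM in Controls. Its RNA was thus 2.91-fold lower and not absent. The 4 exon entries of Cxcl12 were summed, so these values do not separate RNA of the floxed stretch from the rest. The other 9 CAR markers, summed apart after their values were seen, came to 7689, 6500 and 8043 CPM in CXCL12-deficient libraries, against 4363, 4494 and 3782 CPM in Controls. This sum was 1.76 times as high in CXCL12-deficient libraries, without overlap. The 9 log2 fold changes were all above 0 (median 0.71), and 3 of these genes rose (Adipoq, Ebf3 and Cxcl14). RNA of other cells was present as well. The 11 neutrophil markers summed to 2827 to 7032 CPM in CXCL12-deficient libraries and to 15114 to 20574 CPM in Controls, and the 13 monocyte and macrophage markers to 496 to 930 CPM in CXCL12-deficient libraries and 2136 to 3336 CPM in Controls. Endothelial (8 genes), megakaryocyte (5) and B lineage (7) markers were lower in CXCL12-deficient libraries too, and none of these lists overlapped between groups. Of the 11, 13, 8, 5 and 7 markers of these 5 lists, 10, 5, 5, 4 and 3 fell. Among those that fell, Cdh5, Sox17, Gp1ba and Ppbp passed the filter on low counts through the Control group alone. Erythroid, osteoblast and fat cell markers overlapped between groups. In bulk samples such as these, fewer cells of a type and less RNA per cell cannot be told apart. What part these cells had in the results that follow was not tested, and the summed levels of the lists stand beside the genes they touch.

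**Figure D1:**
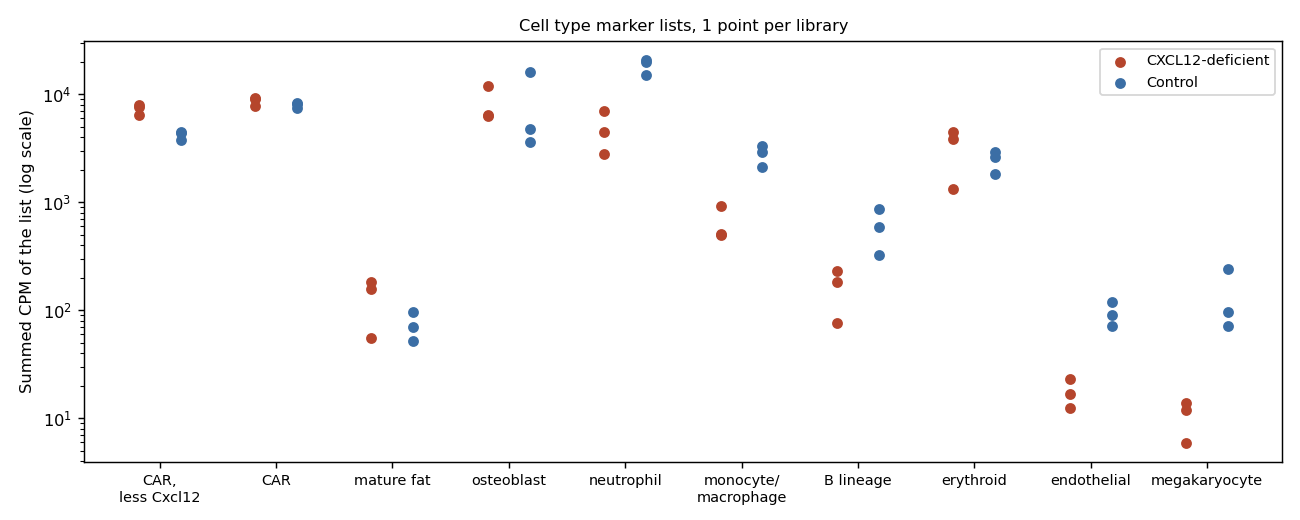
Summed CPM of 9 lists of cell type markers, and of the CAR list less Cxcl12 at the far left (log axis), 1 point per library, CXCL12-deficient left of Control in each list. The 9 CAR markers other than Cxcl12 were higher in every CXCL12-deficient library. Neutrophil, monocyte and macrophage, B lineage, endothelial and megakaryocyte lists were lower in every CXCL12-deficient library, and the fat cell, osteoblast and erythroid lists overlapped, as did the CAR list with Cxcl12 counted in.

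Levels of the 10 genes spanned more than an order of magnitude, and the order differed between groups. Per kilobase of exon, Srebf1 had 21.7 ± 6.72, Acly 17.9 ± 1.31 and Nr1h3 17.4 ± 3.34 CPM in CXCL12-deficient libraries (SD, n = 3), and the ranges of these neighbours overlapped. Scd1 (8.41), Me1 (6.51), Thrsp (4.10) and Fasn (2.31 CPM per kilobase) came next, again with each range overlapping the next. Elovl6 (1.09), Mlxipl (0.758) and Acaca (0.753 CPM per kilobase) were lowest. Mlxipl lay below Elovl6 without overlap, while the wider range of Acaca (0.605 to 1.01) overlapped those of Mlxipl and Elovl6 (0.977 to 1.25). In Controls Acly stood alone at the top with 31.0 ± 3.21 CPM per kilobase, followed by Srebf1 (18.8) and Nr1h3 (9.51). Me1, Scd1, Fasn and Elovl6 formed a chain of overlapping ranges from 4.17 down to 1.56 CPM per kilobase in Controls. Acaca (0.577), Thrsp (0.285) and Mlxipl (0.0635 CPM per kilobase) closed the Control order without overlap.

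**Figure D2:**
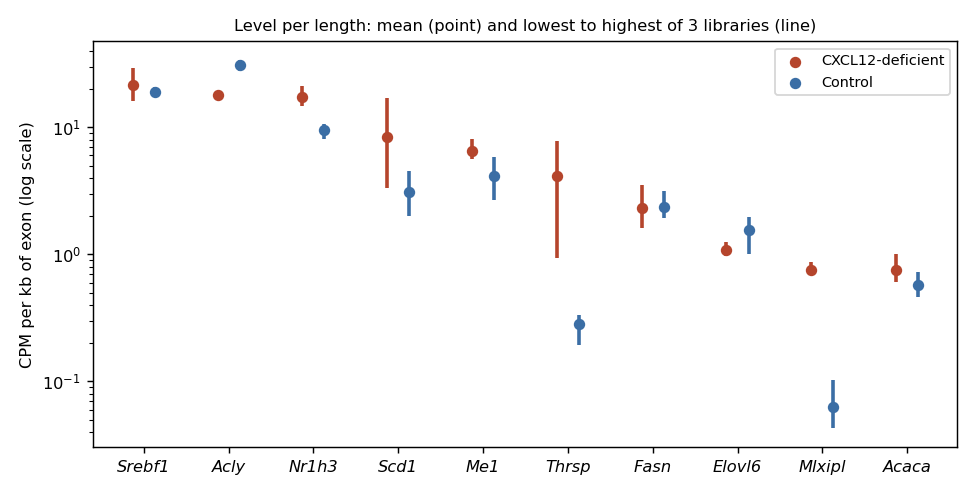
Level of each gene in CPM per kilobase of exon (log axis), with the mean of 3 libraries as a point and the lowest to highest library as a line. Mlxipl and Thrsp lay at the bottom of the Control order, at 0.0635 and 0.285, and at 0.758 and 4.10 in CXCL12-deficient libraries.

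The question asked of these genes was which of them differ when CXCL12 is lost from the marrow stroma. In CXCL12-deficient libraries 3 regulatory genes rose, Mlxipl 11.8-fold, Thrsp 14.2-fold and Nr1h3 1.83-fold, and 1 enzyme gene fell, Acly, which was 1.73-fold lower. The other 5 enzyme genes and Srebf1 were not called. The test was edgeR's quasi-likelihood F-test over 13926 genes with a Benjamini-Hochberg adjusted p below 0.05. It called 4.57% of all tested genes, 0.639% as higher and 3.94% as lower. The groups did not overlap at these 4 genes and overlapped at the other 6, where 25.6% of all tested genes did not overlap (11.7% higher and 13.9% lower). The 10 log2 fold changes had a median of 0.51 and 7 were positive, beside a median of 0.03 and 52.6% positive over all tested genes. As the 10 were chosen with earlier results known, these shares describe the set and do not test it. All 10 genes passed the filter on low counts, but Mlxipl did so through the CXCL12-deficient group alone, as only 1 Control library reached the filter's 0.423 CPM. With 1 library left out the number of higher genes among the 10 lay between 0 and 2 and that of lower genes between 0 and 1. Without Control replicate 3 edgeR called 0 of the 10, with 4 at an unadjusted p below 0.05, while DESeq2 called 3 (Mlxipl, Thrsp and Acly) and limma-voom 0. In that fit edgeR called 74 of all genes.

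Mlxipl, the gene of ChREBP, was barely detected in Controls and present in every CXCL12-deficient library. It had 93, 90 and 108 reads, or 3.87, 3.92 and 4.80 CPM, in CXCL12-deficient replicates 1, 2 and 3, against 7, 14 and 5 reads, or 0.250, 0.569 and 0.236 CPM, in Control replicates 1, 2 and 3. The lowest CXCL12-deficient library stood well above the highest Control. This gave a log2 fold change of 3.56 ± 0.61 (SE; 95% interval 2.19 to 4.92, edgeR adjusted p = 0.015). With 1 library left out it ran from 3.33 to 4.08, and the call was lost only without Control replicate 3 (edgeR adjusted p = 0.076). The level stayed low in absolute terms, with 14% of tested genes below the mean CPM of Mlxipl. Its paralog Mlxip, the gene of MondoA, and their common partner Mlx were not called. Mlxip, chosen after its values were seen, had 30.7, 38.3 and 35.5 CPM in CXCL12-deficient libraries, against 41.9, 35.8 and 46.6 CPM in Controls.

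The genes whose level followed Mlxipl most closely over the 6 libraries were P2rx4, Tmem80, Dhrs3, Lbp and Aamp. They were taken from 10834 genes averaging 5 CPM or more by the Pearson correlation of log2(CPM + 0.5), which lay between 0.9934 and 0.9987. The 6 libraries fall into the same 2 groups for every gene, and so high a value among so many genes is a description of these libraries only. P2rx4, an ATP-gated channel gene, averaged 211 ± 7.32 CPM in CXCL12-deficient libraries and 119 ± 6.72 CPM in Controls. Dhrs3, which encodes a retinal reductase, averaged 253 ± 12.6 CPM in CXCL12-deficient libraries and 135 ± 18.2 CPM in Controls (SD, n = 3 each).

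Thrsp, also known as Spot14, encodes a small protein that is induced by thyroid hormone and carbohydrate in liver and promotes fatty acid synthesis. It varied far more among CXCL12-deficient libraries than Mlxipl did. It had 408, 181 and 46 reads, or 17.0, 7.89 and 2.04 CPM, in CXCL12-deficient replicates 1, 2 and 3, against 20, 18 and 9 reads, or 0.714, 0.732 and 0.425 CPM, in Control replicates 1, 2 and 3. Each CXCL12-deficient library exceeded each Control, though replicate 1 had 8.32 times the level of replicate 3. On the log2 scale the fold change was 3.83 ± 0.75 (SE; 95% interval 2.15 to 5.51, edgeR adjusted p = 0.024). It stayed called in 2 of the 6 fits with a library removed, those that dropped CXCL12-deficient replicate 2 or 3. With CXCL12-deficient replicate 1 dropped, the log2 fold change was 2.98 (edgeR adjusted p = 0.066). limma-voom, which called as many genes in all, did not call Thrsp (adjusted p = 0.19). Its paralog Mid1ip1, whose protein binds and activates acetyl-CoA carboxylase, was named after its values were seen and had 75.7, 92.1 and 67.4 CPM in CXCL12-deficient libraries, against 74.3, 91.3 and 81.6 CPM in Controls.

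Markers of mature fat cells moved in part with Thrsp. Of 10 such markers 9 were in the table, and they summed to 183, 158 and 54.8 CPM in CXCL12-deficient replicates 1, 2 and 3, against 97.2, 70.1 and 52.2 CPM in Control replicates 1, 2 and 3. The order of the 3 CXCL12-deficient libraries was the same as for Thrsp, and CXCL12-deficient replicate 3 lay among the Controls. Fabp4 made up most of the sum, and the order of the sum rested on it. It had 134, 98.5 and 37.5 CPM in CXCL12-deficient libraries, against 72.9, 54.5 and 27.4 CPM in Controls (edgeR adjusted p = 0.39). The groups overlapped at Fabp4. Cfd and Cidec shared the order. Plin4 and Lipe were nearly level in CXCL12-deficient replicates 1 and 2, and Plin1 was highest in replicate 2. Fabp4 and Lipe were named after their values were seen. Of the 6 markers that could be tested, 1 rose (Cfd, adipsin), and the 6 log2 fold changes were all above 0 (median 1.45). Cfd, Cidec and Plin4, 3 of the 6, did not overlap between groups (50%, beside 25.6% of all tested genes). Cidec and Plin4 passed the filter on low counts through the CXCL12-deficient group alone. The lipid droplet genes Cidec, Plin4 and Plin1 were named after their values were seen. Cidec had 5.41, 3.92 and 0.755 CPM in CXCL12-deficient libraries, against 0.250, 0 and 0.661 CPM in Controls (edgeR adjusted p = 0.14). Plin4 had 1.79, 1.79 and 1.33 CPM in CXCL12-deficient libraries, against 0.178, 0.488 and 0.472 CPM in Controls (edgeR adjusted p = 0.16). Plin1, with the smallest fold change of the 6, had 6.87, 21.9 and 3.33 CPM in CXCL12-deficient libraries, against 14.5, 2.36 and 5.01 CPM in Controls. Neither group had any fat cell marker at 0 in all its libraries. The part of fat cells in the rise of Thrsp was not tested. Mlxipl had 93, 90 and 108 reads in CXCL12-deficient replicates 1, 2 and 3, too close to order beside the fat cell marker sum. The part of fat cells in the rise of Mlxipl was not tested either.

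Nr1h3, the LXR alpha gene, rose in a modest and even way. It had 41.2, 36.8 and 53.1 CPM in CXCL12-deficient replicates 1, 2 and 3, against 24.7, 26.7 and 20.3 CPM in Control replicates 1, 2 and 3. The groups did not overlap, with 36.8 CPM as the lowest CXCL12-deficient value and 26.7 CPM as the highest Control value. Its log2 fold change of 0.87 ± 0.21 (SE; edgeR adjusted p = 0.048) was close to the threshold, and the call was lost in each of the 6 refits without a library (0.71 to 0.98, edgeR adjusted p = 0.054 to 0.22) and with plain library totals (edgeR adjusted p = 0.061). The sum of the 9 CAR markers other than Cxcl12 stood in the same order over the CXCL12-deficient libraries, replicate 3 highest and replicate 2 lowest. The single markers did not all share that order. Cxcl14 had 2402, 2283 and 1932 CPM and Foxc1 272, 475 and 655 CPM in CXCL12-deficient replicates 1, 2 and 3. The sum was higher than in Controls by a factor similar to that of Nr1h3 (1.76 beside 1.83). The part of the stromal share of the RNA in the rise of Nr1h3, as of Mlxipl and Thrsp, was not tested. Macrophages also express Nr1h3. Of the 12 monocyte and macrophage markers tested, 5 fell and 5 had a positive log2 fold change without a call. Ptprc, the pan-leukocyte gene, had 12.7, 16.9 and 10.2 CPM in CXCL12-deficient libraries, against 59.8, 75.4 and 107 CPM in Controls. The macrophage complement gene C1qc was chosen like Ptprc after its values were seen. It had 55.9, 27.9 and 52.2 CPM in CXCL12-deficient libraries, against 22.8, 29.1 and 27.2 CPM in Controls (edgeR adjusted p = 0.15), and the groups overlapped. CXCL12-deficient replicate 2 was lowest of its group for both Nr1h3 and C1qc, but the highest was replicate 3 for Nr1h3 and replicate 1 for C1qc. The part of macrophages in the rise of Nr1h3 was not tested.

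Srebf1, the most abundant of the regulators per kilobase, showed no call. It had 90.2, 164 and 112 CPM in CXCL12-deficient replicates 1, 2 and 3, against 101, 98.6 and 118 CPM in Control replicates 1, 2 and 3. One CXCL12-deficient library lay below all Controls and another above all of them. The log2 fold change was 0.21 (95% interval -0.29 to 0.70, edgeR adjusted p = 0.68), and it changed sign without CXCL12-deficient replicate 2.

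The promoters of the 4 called genes are shown because these are the genes that moved. Each line gives the 250 bases before the most upstream start that RefSeq lists for the gene (GRCm38.p6), 5′ to 3′ in the direction of transcription, with matched motifs in capitals. The windows are chr5:135089640-135089889 on the plus strand for Mlxipl and, on the minus strand, chr7:97417551-97417800 for Thrsp, chr2:91195117-91195366 for Nr1h3 and chr11:100528001-100528250 for Acly.
Mlxipl: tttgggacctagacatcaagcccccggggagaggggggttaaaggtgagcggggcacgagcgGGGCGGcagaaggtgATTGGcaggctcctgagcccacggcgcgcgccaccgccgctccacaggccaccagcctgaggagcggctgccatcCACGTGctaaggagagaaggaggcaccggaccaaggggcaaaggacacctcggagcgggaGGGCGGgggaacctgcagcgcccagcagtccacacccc
Thrsp: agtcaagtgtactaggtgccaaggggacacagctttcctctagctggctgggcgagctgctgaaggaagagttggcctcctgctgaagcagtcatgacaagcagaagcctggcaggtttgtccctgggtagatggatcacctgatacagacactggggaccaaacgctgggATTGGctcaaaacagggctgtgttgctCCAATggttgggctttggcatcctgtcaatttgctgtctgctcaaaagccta
Nr1h3: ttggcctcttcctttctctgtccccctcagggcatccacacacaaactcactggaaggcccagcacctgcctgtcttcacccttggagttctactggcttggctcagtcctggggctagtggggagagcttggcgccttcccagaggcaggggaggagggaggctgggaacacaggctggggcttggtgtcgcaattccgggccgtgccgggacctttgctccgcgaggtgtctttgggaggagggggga
Acly: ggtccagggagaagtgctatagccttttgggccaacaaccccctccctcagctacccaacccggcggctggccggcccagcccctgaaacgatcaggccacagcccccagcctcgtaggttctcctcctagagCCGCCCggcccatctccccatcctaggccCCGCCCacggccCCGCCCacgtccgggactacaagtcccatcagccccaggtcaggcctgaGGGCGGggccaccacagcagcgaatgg
The motifs searched on both strands were the sterol regulatory element TCACNCCAC, the E-box CACGTG bound by ChREBP and USF factors, the NF-Y box CCAAT and the GC box GGGCGG. Upstream windows of 32851 RefSeq starts held them in 1.05%, 6.02%, 33.8% and 32.7% of cases. The Mlxipl window held 1 E-box, 98 bases before the start, with 1 NF-Y box and 2 GC boxes. The second listed Mlxipl start had a sterol regulatory element 136 bases upstream in place of these. Thrsp held 2 NF-Y boxes, Acly 4 GC boxes, and Nr1h3 had none of the 4 motifs in either of its 2 windows. Of the 9 genes with a listed promoter, Mlxipl was the only one with an E-box or a sterol regulatory element in these windows. The 9 genes had 14 windows in all. NF-Y boxes were found in 6 of the 14 (at 5 genes) and GC boxes in 5 (at 4 genes). A match is a string of letters and not a measured binding site. No sequence is shown for Scd1.

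**Figure D3:**
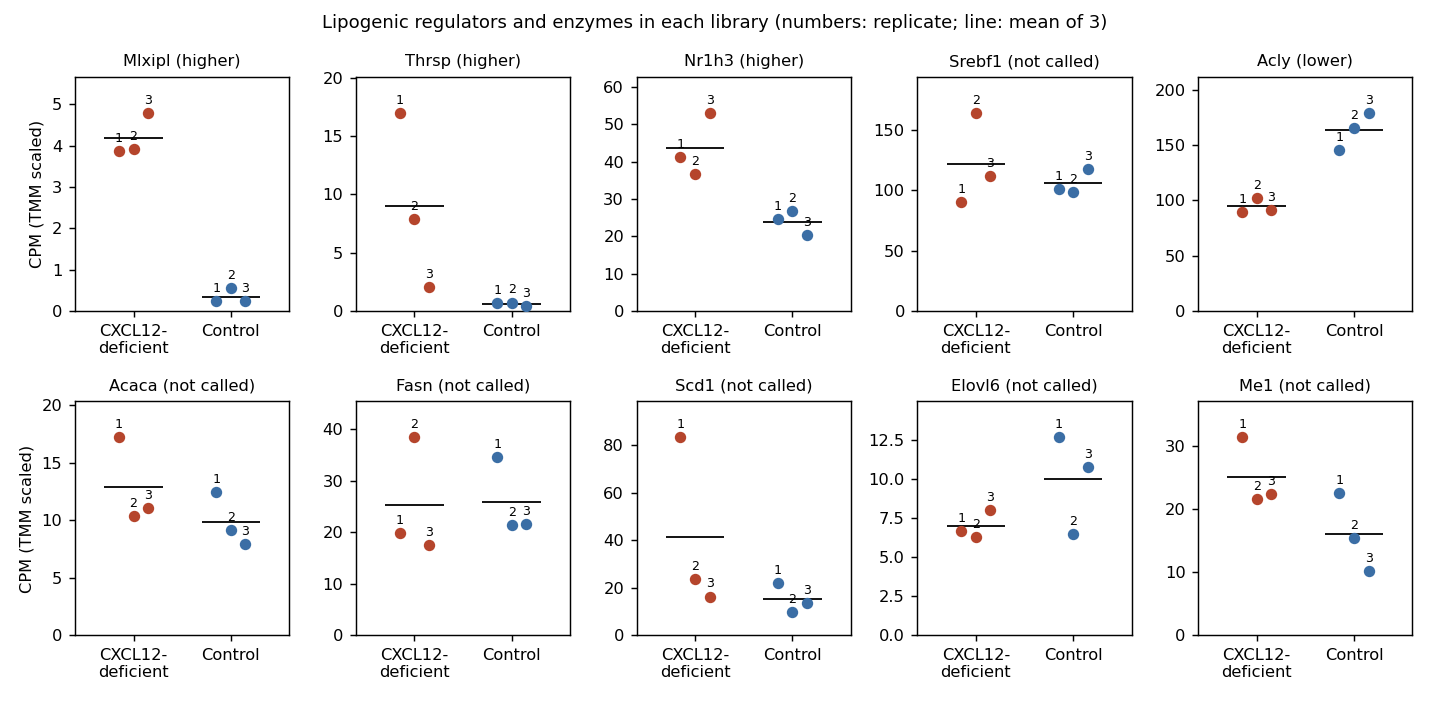
CPM of the 10 genes in each library, CXCL12-deficient left of Control, with the replicate number at each point and the mean as a line. Mlxipl, Thrsp and Nr1h3 lay above all Controls in all 3 CXCL12-deficient libraries, Acly lay below, and the other 6 genes overlapped.

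Acly, which opens the pathway by making acetyl-CoA in the cytosol, was the only enzyme gene called, and it fell. It had 89.8, 102 and 91.4 CPM in CXCL12-deficient replicates 1, 2 and 3, against 145, 166 and 179 CPM in Control replicates 1, 2 and 3. All 3 CXCL12-deficient libraries lay within a narrow band below the lowest Control. The log2 fold change was -0.79 ± 0.15 (SE; 95% interval -1.12 to -0.46, edgeR adjusted p = 0.020). The call held in 2 of the 6 fits with a library removed, those without CXCL12-deficient replicate 2 or Control replicate 1, with log2 fold changes from -0.89 to -0.73 and edgeR adjusted p from 0.026 to 0.10. Acly is expressed in many cell types. The neutrophil marker sum and the monocyte and macrophage marker sum given above were lower in the same 3 libraries. Lyz2 made up most of the second sum. It had 639, 351 and 306 CPM in CXCL12-deficient libraries, against 1732, 2872 and 2378 CPM in Controls. Of the 12 tested genes of that list 5 fell. C1qa, C1qb, C1qc, Mrc1 and Cd163 had positive log2 fold changes without a call. The part of neutrophils, monocytes and macrophages in the fall of Acly was not tested.

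The carboxylase and synthase genes that follow showed overlapping groups. Acaca had 17.2, 10.3 and 11.1 CPM in CXCL12-deficient libraries, against 12.5, 9.15 and 7.94 CPM in Controls (log2 fold change 0.38, 95% interval -0.30 to 1.07, edgeR adjusted p = 0.56). Replicate 1 was the highest of its group on both sides. Fasn had 19.9, 38.4 and 17.5 CPM in CXCL12-deficient libraries, against 34.7, 21.3 and 21.6 CPM in Controls. A single library stood above the rest in each group, and the log2 fold change of -0.03 had a 95% interval from -0.79 to 0.72 (edgeR adjusted p = 0.97). With 3 libraries a group, changes of Fasn within that interval were not excluded, and the smallest change the test could call was not computed. The CXCL12-deficient library high in Fasn, replicate 2, was also the one high in Srebf1.

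The genes that lengthen and desaturate palmitate did not pass the test either. Scd1 had 83.3, 23.8 and 16.3 CPM in CXCL12-deficient libraries, against 22.0, 9.88 and 13.7 CPM in Controls. CXCL12-deficient replicate 1, which was also the library with most Thrsp, carried most of the difference. Its log2 fold change was 1.43 ± 0.57 (edgeR adjusted p = 0.21), and without that library it was 0.40. The groups overlapped, since Control replicate 1 exceeded CXCL12-deficient replicate 3. Scd2, the paralog that predominates in brain and was named after its values were seen, had 69.7, 51.1 and 71.7 CPM in CXCL12-deficient libraries, against 73.0, 58.3 and 60.1 CPM in Controls. The Scd genes are similar in sequence, and how reads shared between them were counted is not given in the sources used here. Elovl6 had 6.66, 6.28 and 8.04 CPM in CXCL12-deficient libraries, against 12.7, 6.50 and 10.8 CPM in Controls (log2 fold change -0.52, 95% interval -1.25 to 0.22, edgeR adjusted p = 0.45).

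Me1, the cytosolic malic enzyme, had 31.3, 21.5 and 22.4 CPM in CXCL12-deficient libraries, against 22.5, 15.4 and 10.3 CPM in Controls. The groups overlapped through Control replicate 1. Its log2 fold change was 0.64 (95% interval -0.05 to 1.33, edgeR adjusted p = 0.30). Among the 6 genes not called, Scd1, Me1 and Acaca were highest in replicate 1 of both groups, although the numbers only name the libraries and do not pair them.

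**Figure D4:**
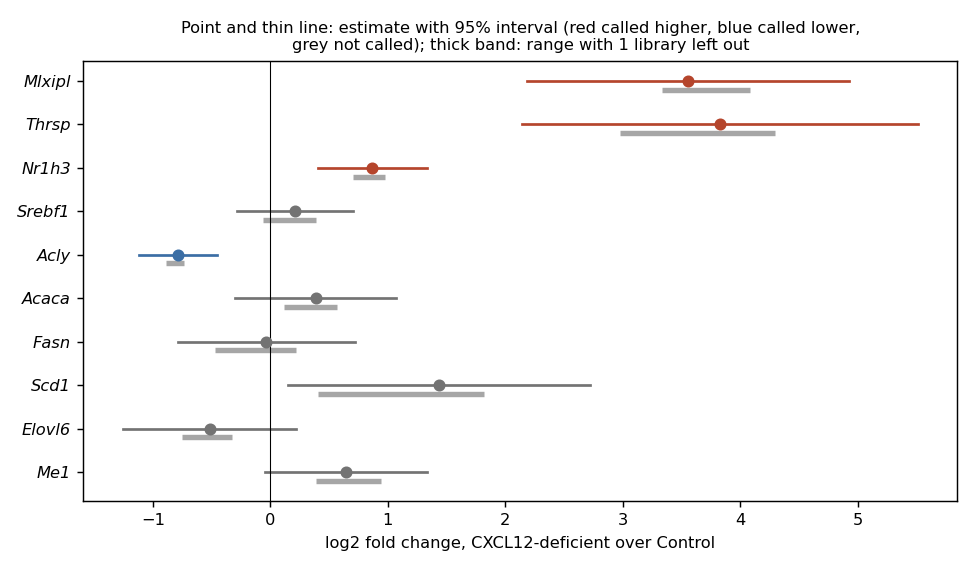
Log2 fold change of each gene, CXCL12-deficient over Control, with its 95% interval (thin line) and the range of estimates with 1 library left out (thick band). The intervals of Mlxipl, Thrsp and Nr1h3 lie above 0, that of Acly lies below, that of Scd1 starts at 0.15 without passing the adjusted threshold, and the other 5 cross 0.

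The rest of the synthesis, elongation and desaturation machinery had no called gene. Of 22 listed enzymes and carriers 18 were tested, and edgeR called 0 higher and 0 lower. An edgeR unadjusted p below 0.05 was found for 5 of the 18, beside 2634 of all 13926 tested genes. DESeq2 called 1 higher and 1 lower, and limma-voom called 0. Their median log2 fold change was 0.21. The most abundant were Tecr and Fads3, which encode an enoyl-CoA reductase and a desaturase. Tecr averaged 202 ± 22.0 CPM in CXCL12-deficient libraries and 225 ± 21.1 CPM in Controls. Fads3 averaged 241 ± 80.1 CPM in CXCL12-deficient libraries and 169 ± 34.8 CPM in Controls (SD, n = 3 each). Of the 18, 7 did not overlap between groups (38.9%, beside 25.6% of all tested genes), 5 of them higher and 2 lower in CXCL12-deficient libraries. These 7 did not pass the test, and 4 were named after their values were seen, the dehydratase gene Hacd3, the mitochondrial citrate carrier gene Slc25a1 and the elongase genes Elovl5 and Elovl7. Hacd3 had 84.8, 88.5 and 92.4 CPM in CXCL12-deficient libraries, against 59.9, 55.8 and 69.7 CPM in Controls (edgeR adjusted p = 0.097). Slc25a1, which supplies the substrate of Acly, had 84.9, 89.8 and 84.8 CPM in CXCL12-deficient libraries, against 76.8, 64.3 and 59.5 CPM in Controls (edgeR adjusted p = 0.23). The lower pair were Elovl5 and Elovl7. Elovl5 had 56.4, 50.5 and 62.3 CPM in CXCL12-deficient libraries, against 65.5, 75.6 and 73.0 CPM in Controls (edgeR adjusted p = 0.27). Elovl7, a low gene, had 1.17, 0.0436 and 0.311 CPM in CXCL12-deficient libraries, against 1.89, 3.78 and 3.97 CPM in Controls (log2 fold change -2.64, edgeR adjusted p = 0.17), and DESeq2 called it lower (adjusted p = 0.043). It passed the filter on low counts through the Control group alone, with 28, 1 and 7 reads in CXCL12-deficient libraries.

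Among 6 other genes of NADPH supply 1 fell, Me2, and edgeR called 0 higher, where DESeq2 called 1 higher. A positive fold change with an edgeR unadjusted p below 0.05 was found for 1 of the 6, beside 1057 of all 13926 tested genes. Me2 encodes the mitochondrial malic enzyme, which is known to work mainly with NAD, so its place in a list of NADPH producers is loose. It had 60.2, 74.6 and 52.9 CPM in CXCL12-deficient libraries, against 124, 118 and 126 CPM in Controls. The groups were well apart, with a log2 fold change of -0.97 ± 0.17 (edgeR adjusted p = 0.015), and the call was lost without Control replicate 2 or 3. Me3, the other mitochondrial malic enzyme gene and one named after its values were seen, had 17.0, 15.7 and 16.6 CPM in CXCL12-deficient libraries, against 11.4, 5.98 and 6.52 CPM in Controls (edgeR adjusted p = 0.097). The 3 malic enzyme genes thus had log2 fold changes of 0.64 (Me1), -0.97 (Me2) and 1.04 (Me3), of which only that of Me2 passed the test. The list had a median of 0.10.

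The other regulators of lipogenesis, 18 genes, had 0 called by edgeR. An edgeR unadjusted p below 0.05 was found for 3 of the 18, beside 2634 of all 13926 tested genes. Among these regulators DESeq2 called 2 higher and limma-voom 0. Their median log2 fold change was -0.01, with 9 positive and 9 negative. Insig2, which retains the SREBP complex in the endoplasmic reticulum, was the most abundant and had 397, 436 and 398 CPM in CXCL12-deficient libraries, against 308, 295 and 234 CPM in Controls (edgeR adjusted p = 0.092). Nr1h2, the gene of LXR beta, had 204, 302 and 201 CPM in CXCL12-deficient libraries, against 191, 178 and 183 CPM in Controls (edgeR adjusted p = 0.34). Rxra, the partner receptor of LXR, was named after its values were seen and had 49.2, 55.1 and 56.6 CPM in CXCL12-deficient libraries, against 34.6, 35.2 and 39.1 CPM in Controls (edgeR adjusted p = 0.084). These 3 of the 18 genes did not overlap between groups (16.7%, beside 25.6% of all tested genes). Srebf2, the SREBP gene of cholesterol synthesis and also named after its values were seen, had 28.4, 29.0 and 38.7 CPM in CXCL12-deficient libraries, against 38.2, 47.7 and 58.0 CPM in Controls (edgeR adjusted p = 0.18).

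Known targets of the regulators that rose were called in 2 cases. Of 8 LXR target genes outside fatty acid synthesis 1 rose, the lipid carrier gene Apoe, and the list had a median log2 fold change of 0.27 with 7 positive. Apoe had 4352, 5213 and 5850 CPM in CXCL12-deficient libraries, against 2109, 2344 and 1793 CPM in Controls (log2 fold change 1.30 ± 0.20, edgeR adjusted p = 0.011). Of the 6 fits with a library removed, 1 lost the call of Apoe, that without Control replicate 3 (edgeR adjusted p = 0.061), and an adjusted p below 0.01 was not reached with all 6 libraries. Of the 8, 4 did not overlap between groups (50%, beside 25.6% of all tested genes), 3 higher and 1 lower in CXCL12-deficient libraries. Pltp, a phospholipid transfer protein gene named after its values were seen, had 169, 152 and 154 CPM in CXCL12-deficient libraries, against 133, 98.9 and 78.0 CPM in Controls (edgeR adjusted p = 0.13). Arl4c, a small GTPase gene also named after its values were seen, was the one lower gene, with 1.33, 1.44 and 2.49 CPM in CXCL12-deficient libraries, against 10.2, 3.54 and 4.63 CPM in Controls (log2 fold change -1.81, edgeR adjusted p = 0.10), and DESeq2 called it lower. Of 6 ChREBP target genes outside fatty acid synthesis 1 rose, Gpd1, the glycerol phosphate dehydrogenase gene of triglyceride synthesis, and the list had a median of 0.16. Gpd1 had 54.8, 81.1 and 16.0 CPM in CXCL12-deficient libraries, against 5.25, 3.09 and 9.54 CPM in Controls. CXCL12-deficient replicate 3 was the lowest of its group for both Gpd1 and Thrsp, as for the fat cell marker sum. The highest was replicate 2 for Gpd1, and replicate 1 for Thrsp and that sum. In Controls Gpd1 was highest in replicate 3, where Thrsp and the sum were lowest. The part of fat cells in the rise of Gpd1 was not tested. The log2 fold change of Gpd1 was 3.09 ± 0.60 (edgeR adjusted p = 0.023), called in 1 of the 6 fits with a library removed, that without CXCL12-deficient replicate 3, and not by limma-voom (adjusted p = 0.092). Arrdc4, an arrestin gene induced by glucose and named after its values were seen, had 599, 479 and 537 CPM in CXCL12-deficient libraries, against 452, 410 and 357 CPM in Controls (edgeR adjusted p = 0.21).

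**Figure D5:**
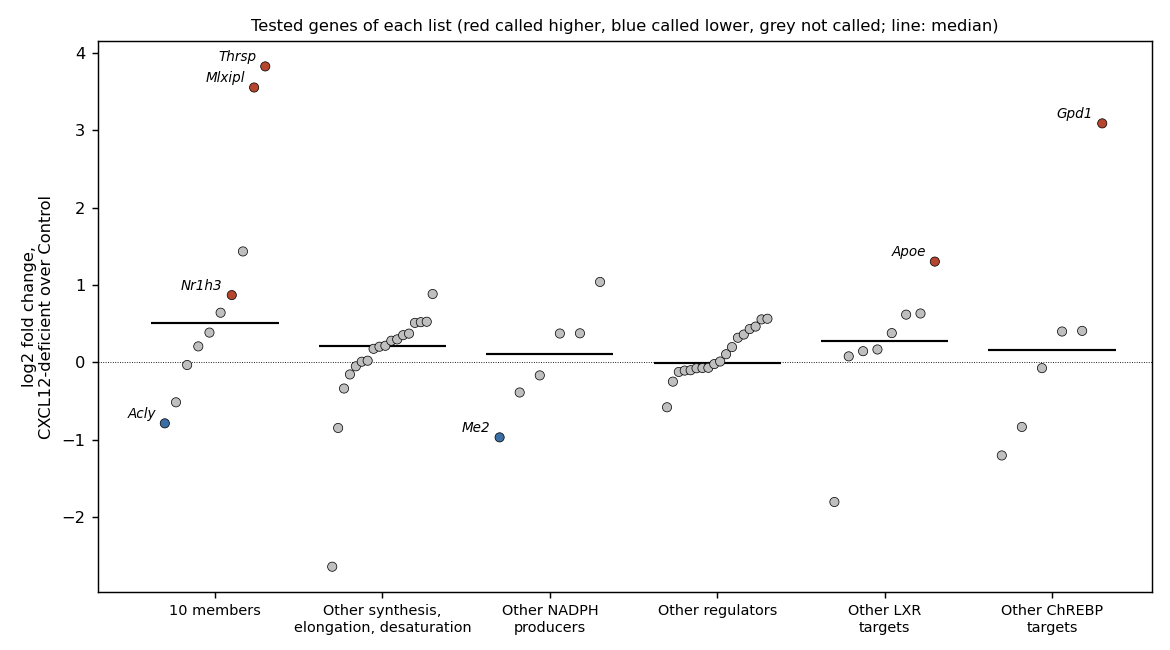
Log2 fold change, CXCL12-deficient over Control, of the tested genes in the set of 10 and in 5 related lists, with the median as a line and called genes named. Outside the 10 genes, Apoe and Gpd1 rose and Me2 fell.

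The 10 genes lie on 7 chromosomes, and Srebf1, Acly, Acaca and Fasn share chromosome 11 (GRCm38, GENCODE M21). Mlxipl spans 135089890 to 135138382 on the plus strand of chromosome 5, and Thrsp 97412938 to 97417730 on the minus strand of chromosome 7. Nr1h3 spans 91184061 to 91202834 on the minus strand of chromosome 2, and Acly 100476353 to 100528000 on the minus strand of chromosome 11. In that annotation, exons of Mlxipl overlap those of the antisense transcript Gm43500 over 235 bases, and exons of Srebf1 overlap those of Rai1 on the opposite strand over 109 bases. The strand setting of the counting is not given in the sources used here, and reads in these stretches cannot be assigned to one gene. Thrsp, Acly, Acaca, Fasn and Scd1 share no exon base with another annotated gene.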

How the data were processed

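RNA sequencing of 6 libraries was deposited as a table of read counts per gene, whole numbers left unscaled by the authors. Per the submitters' processing notes the tools were HTSeq, Bowtie2 2.2.1, TopHat2 2.0.13, DESeq2, Cuffdiff, Cufflinks and FastQC, with no role for each, and the build was mm10. Neither the annotation nor the strand setting is given in the sources used here. The authors also deposited regularized log2 values, used for 1 alternative after 23 names that had become dates were left out, and a table of scaled counts, which was not used.

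Total counts ran from 20133299 to 28009257, so 1 read was worth 0.0357 to 0.0472 CPM. These 2 figures set the precision of low values such as those of Mlxipl. The 4 exon entries of Cxcl12 were summed, which left 17128 genes of 17131 entries, and filterByExpr (minimum count 10, minimum total 15) kept 13926. Both groups were fitted together in edgeR 4.0.16 (R 4.3.3; robust quasi-likelihood F-test) with TMM factors (0.955 to 1.05) and Benjamini-Hochberg adjustment over all tested genes at 0.05. CPM are TMM scaled, standard errors come from the F statistic and intervals are 95%. Levels per kilobase use the merged exons of GENCODE M21, which may differ from the authors' annotation. The fit was also run on simulated counts drawn with the means and spread of these data, and no result above rests on that run.

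The members and lists were chosen with earlier results of these data known. Besides the 10 members, the named genes were up to 4 called genes of each list or, where none was called, its 2 most abundant. Of 138 listed genes outside the 10, 2 were in no entry (Olah and Lep) and 4 were found under an older symbol. Promoter sequences are RefSeq's, and 9 of the 10 genes had one. The alternatives tried were DESeq2 1.42.0, limma-voom, limma 3.58.1 on the log2 values, no robust shrinkage, library totals, upper quartile factors, DESeq2 size factors, no filter beyond 1 read, 5 CPM in at least 3 libraries, a threshold of 0.01, and the removal of each library in turn. The sum of CAR markers without Cxcl12 was added after seeing the data.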

Additional observations from a re-analysis of the deposited data

How the results depend on the processing

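No paired analysis was possible because the labels give no replicate numbers. The alternatives are those named under the processing. Over all tested genes 637 were called, against 1291 with DESeq2, 80 at an adjusted p below 0.01, and 74 to 577 with 1 library left out. Of the 10 genes 3 were called higher and 1 lower, and these 4 were called with DESeq2 too. At an adjusted p below 0.01 the 10 genes and the 5 related gene lists had 0 called in either direction. With a filter of 5 CPM in at least 3 libraries 1 of the 10 was called higher, because Mlxipl and Thrsp were no longer tested. With 1 library left out, the called genes numbered 0 to 2 higher and 0 to 1 lower among the 10, 0 to 1 higher and 0 to 1 lower among NADPH producers, 0 to 2 higher among LXR targets and 0 to 1 higher among ChREBP targets, where limma-voom gave 0. DESeq2 called 1 higher and 1 lower of the synthesis and elongation list, 1 higher of the NADPH list, 2 higher of the other regulators and 1 lower of the LXR targets, and the deposited log2 values gave 1 lower of the synthesis list.

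On the deposited log2 values, where rlog shrinks low counts by its construction, the log2 fold changes of Mlxipl and Thrsp were 0.57 and 0.98, and Thrsp was not called (adjusted p = 0.079). Some directions turned, always for genes far from a call. With 1 library left out Fasn ran from -0.47 to 0.22 (0.11 and 0.17 without CXCL12-deficient replicates 1 and 3, 0.22 without Control replicate 1), Srebf1 from -0.065 to 0.38 (the lowest without CXCL12-deficient replicate 2), Mid1ip1 from -0.20 to 0.028 and Scd2 from -0.078 to 0.15. Scd2, at 0.0078 in the comparison as reported, was at -0.0050 with DESeq2 size factors, -0.0051 with DESeq2, -0.0043 with limma-voom, -0.0083 on the log2 values, -0.057 with library totals and -0.024 with the 5 CPM filter. The cause of these turns was not tested. The other scalings put the median of all genes between -0.0375 and 0.0407. The CAR marker sum was 1.09 times as high in CXCL12-deficient libraries with Cxcl12 in it and 1.76 times without, an alternative chosen after seeing the data. Depth limits Mlxipl and Thrsp, whose Control values rest on 5 to 20 reads a library.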
